A study of Homo sapiens with 38 samples.

Results

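The Sprouty genes SPRY1, SPRY2 and SPRY4, the Sprouty-related genes SPRED1, SPRED2 and SPRED3, and the dual-specificity phosphatase genes DUSP4, DUSP5 and DUSP6 were followed as Shef6 human embryonic stem cells left the naive state. These 9 genes were taken by symbol from a table of 57133 genes, and 8 of them passed the filter on low counts that left 16674 genes for testing. SPRED3 did not pass it, with 0 to 5 counts per library. Naive cells were kept in PXGL, which is N2B27 basal medium with the MEK inhibitor PD0325901, the tankyrase inhibitor XAV939, the PKC inhibitor Gö6983 and LIF. The cells of all groups had been adapted to growth without feeder cells on dishes coated with serum. The naive groups were on serum coating or on Geltrex, which is a basement membrane extract. Differentiated cells were all on Geltrex, with a ROCK inhibitor over the first day. The study also added a ROCK inhibitor to naive medium over the first day after passaging. The names of the naive libraries carry PXGLY where their labels give PXGL. In experiment Ex1 they were grown in N2B27 or in the commercial medium E8 for 2, 3, 4, 6 or 8 days, or in the commercial medium mTeSR for 4, 6 or 8 days. In experiment Ex2 they were grown for 4 days in N2B27 alone, with XAV939 added (XAV), or with XAV939, Activin A and FGF2 added (FAX). E8 and mTeSR also hold FGF2. Each of the 19 groups had 2 libraries, and the naive groups were on serum coating in Ex1 and on Geltrex in Ex1 and Ex2, which gave 6 naive libraries in all. The whole series was made in 1 line.

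FGF receptors signal through RAS, RAF and MEK to ERK, and ERK activity induces its own inhibitors. Sprouty proteins act between the receptor and RAF, SPRED proteins bring the RAS-inactivating protein neurofibromin to the membrane, and DUSP proteins remove phosphate from ERK itself, DUSP6 in the cytoplasm and DUSP4 and DUSP5 in the nucleus. Transcripts of these genes are widely used as readouts of ERK activity. Naive human pluripotent cells are kept with a MEK inhibitor, which blocks the step above ERK.

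Total counts ran from 3038046 to 5612354 per library, and the replicates of a group correlated with Pearson's r of 0.965 to 0.986. The study describes the replicates of these libraries as technical in most places and as biological in 1, so that p-values measure the spread between these libraries, which may be technical. The summed level of 7 markers of primed or formative cells was 23.02 to 29.6 CPM (reads per library, brought to 1 common depth) in the 4 naive libraries of Ex1, 21.9 and 25.2 CPM in both naive libraries of Ex2 and 221 to 246 CPM in N2B27 at day 2. The names of both naive libraries of Ex2 carry a d4 while their labels give day 0.

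Short sequence elements near the start sites are of use when reading these genes. CIC is a repressor that ERK switches off and that binds the octamers TGAATGAA, TGAATGGA, TCAATGAA and TCAATGGA. For the ETS factors that ERK activates, only sites with the letters CCGGAA were searched. Both strands of the RefSeq promoters of GRCh38.p14 (250 bases before to 50 after a start) were searched, and 7 of the 9 genes had a promoter there. A CIC octamer was present in 3.77% of 35116 promoters and at least 2 in 0.327%. The promoter of DUSP6 held 2, a promoter of SPRED3 held 1, and those of SPRY1, SPRY2, SPRY4, SPRED1 and SPRED2 held none. CCGGAA was present in 17.2% of promoters, among them 1 each for SPRY1 and SPRY2. Other forms of ETS site were not searched. The DUSP6 and Sprouty sites are shown because the course of DUSP6 is described at length below, with the matched letters in capitals and each sequence read on the strand of the gene, 5′ to 3′. The octamer lies on the opposite strand of DUSP6 and so appears as its reverse complement.
DUSP6, chr12:89352507-89352536, minus strand: cggagaatgtaTCCATTGAgacgctcgctg
DUSP6, chr12:89352482-89352511, minus strand: cgctgtttgtaTCCATTGAggagctgcctc
SPRY1, chr4:123398307-123398336, plus strand: tgccctccgcagCCGGAAgggggccgcggg
SPRY2, chr13:80341251-80341280, minus strand: tccctgcctcctCCGGAAaggcgagggcgc
The first DUSP6 octamer began 24 bases before the start site and the second at base 2 of the transcript. A match of these letters does not show that a factor is bound.

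All 8 genes tested were higher after release from PXGL in every medium and on every day. This held in 120 of 120 comparisons with the naive libraries, each passing an adjusted p of 0.05 and a log2 fold change of 1 in edgeR's quasi-likelihood test, with every library after release above every naive one. The share of all 16674 genes called higher was 9.86%, 9.78%, 12.5%, 16.4% and 16.9% in N2B27 at days 2, 3, 4, 6 and 8. It was 13.9%, 11.8%, 13.6%, 15.8% and 18.2% in E8 on the same days, 12.8%, 15.7% and 16.9% in mTeSR at days 4, 6 and 8, 10.5% in XAV and 10.3% in FAX. SPRY4, DUSP4 and DUSP6 were at or near 0 in naive cells and passed the filter through the libraries after release, so the count of 8 is a description. Fewer cells that express a gene and less RNA per cell cannot be told apart in these bulk libraries. All components of PXGL were withdrawn together in N2B27, E8 and mTeSR, and the part of each cannot be told apart there. In XAV the tankyrase inhibitor stayed while the other components were withdrawn, and the 8 genes were called higher than in naive cells. The part of the tankyrase inhibitor was not tested.

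**Figure D1:**
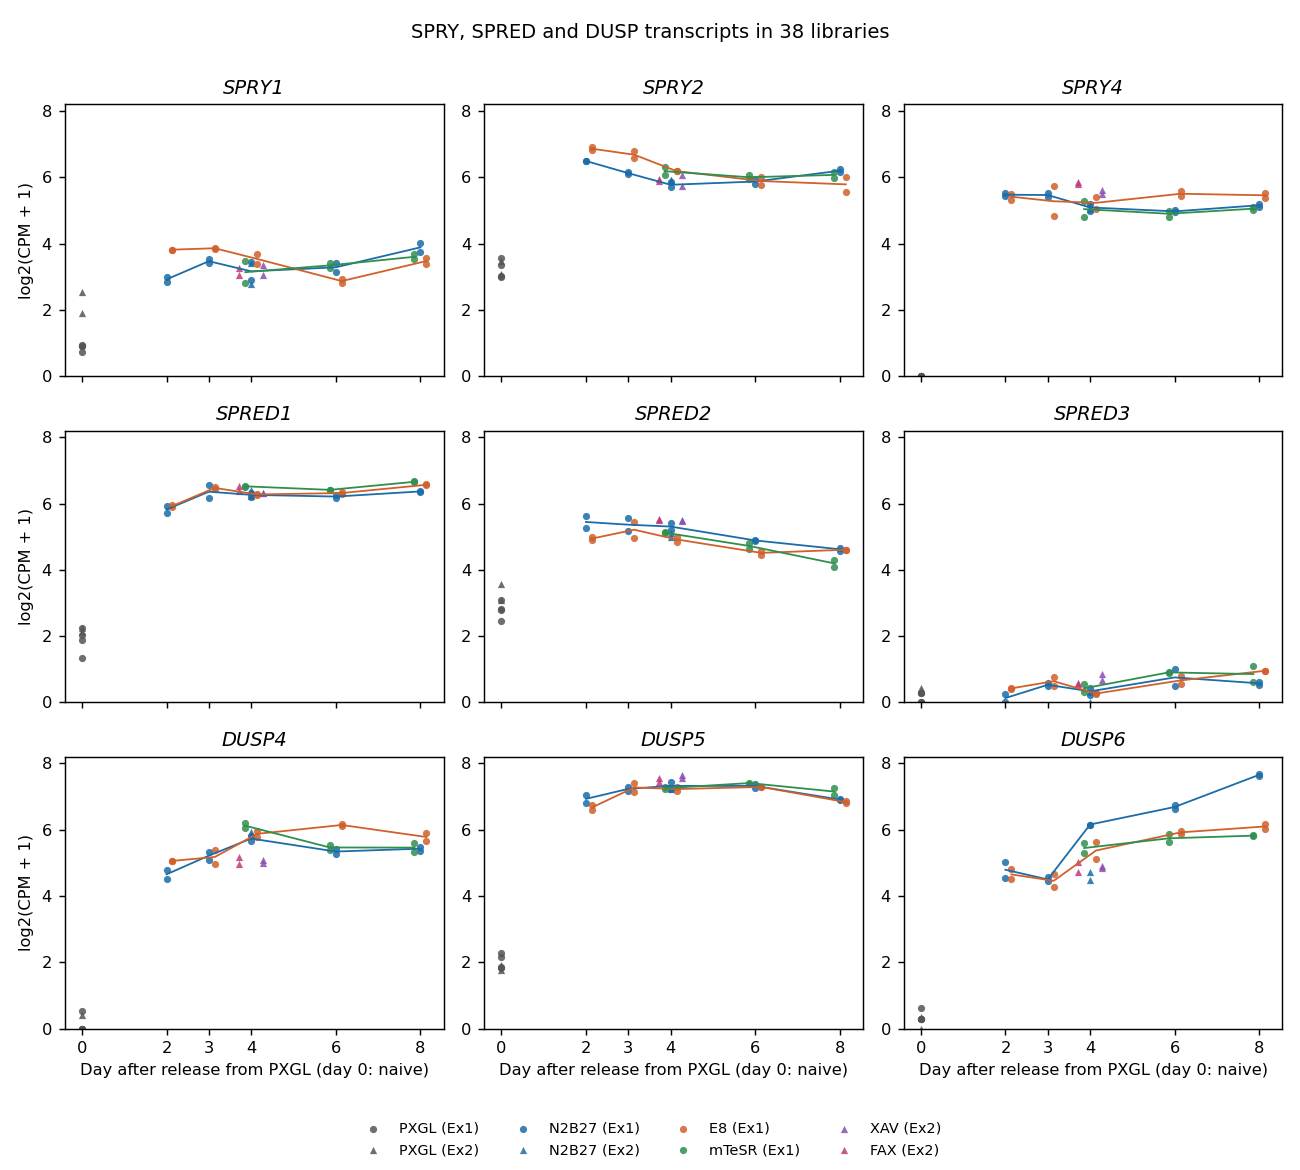
Level of each of the 9 genes as log2(CPM + 1) against the day after release, with 1 point per library, colours for media and triangles for Ex2, and lines through the means of Ex1. The naive libraries at day 0 lie below every later library for all genes except SPRED3, which stays at or below 1.12 CPM, and DUSP6 in N2B27 of Ex1 lies above the other media from day 4 on.

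The Sprouty genes encode the inhibitors closest to the receptor. SPRY4 (chr5:142310427-142326455) had 0 counts in all 6 naive libraries. It stood at 42.0 and 45.1 CPM in N2B27 at day 2 and at 26.7 to 56.8 CPM over the 32 libraries after release. Against a floor of 3 counts in the shallowest naive library, group means were at least 28.3-fold higher in mTeSR at day 6 and at least 54.5-fold higher in FAX. SPRY2 (chr13:80335976-80341126) was transcribed already in naive cells, at a lowest, median and highest level of 7.04, 8.34 and 10.8 CPM. Both N2B27 libraries at day 2 were far above this, at 88.2 and 89.9 CPM, a log2 fold change of 3.36 (SE 0.135, adjusted p = 5.68e-20, n = 2 against 6). Its change against naive lay between 2.66 and 3.74 over the 15 comparisons.

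SPRY1 (chr4:123396795-123403760) gave 3 to 14 counts per naive library. Its naive CPM values ran from 0.673 through a median of 0.894 to 4.78, and the 2 highest belonged to Ex2. In N2B27 it was 7.00 and 6.17 CPM at day 2 and 12.6 and 15.2 CPM at day 8. The groups did not overlap, and the log2 fold change was 2.03 (SE 0.370, adjusted p = 6.32e-05) at day 2 and 3.098 (SE 0.323, adjusted p = 8.92e-10) at day 8. These changes depended on the naive libraries: against those on Geltrex of the same experiment they were 3.004 and 4.08, and those of XAV and FAX moved from 2.34 and 2.30 to 1.15 and 1.10.

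The SPRED genes encode the partners of neurofibromin. SPRED1 (chr15:38252836-38357249) had a lowest, median and highest naive level of 1.55, 3.19 and 3.79 CPM. In N2B27 it reached 59.6 and 51.7 CPM at day 2, a log2 fold change of 4.20 (SE 0.144, adjusted p = 9.04e-22), and over all media its change lay between 4.20 and 5.04. SPRED2 (chr2:65310851-65432637) started from 4.49, 6.81 and 10.8 CPM as the lowest, median and highest of the naive libraries. It stood at 48.8 and 37.0 CPM in N2B27 at day 2, a log2 fold change of 2.63 (SE 0.174, adjusted p = 4.92e-14). By day 8 the N2B27 libraries were at 24.5 and 22.8 CPM, still above all naive libraries but closer to them, with a log2 fold change of 1.76 (SE 0.186, adjusted p = 1.23e-09). SPRED3 (chr19:38388421-38399587) gave 0 to 1 count per naive library and at most 5 counts later, which is too few for any statement on its direction.

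Among the ERK phosphatases, DUSP5 (chr10:110497907-110511533), a nuclear enzyme, had a lowest, median and highest naive level of 2.39, 2.71 and 3.82 CPM. It was 131 and 112 CPM in N2B27 at day 2, a log2 fold change of 5.34 (SE 0.123, adjusted p = 7.40e-27), and between 96.2 and 198 CPM over all 32 libraries after release. DUSP4, the other nuclear member, lies at chr8:29333064-29350684 and gave 3 counts in the 6 naive libraries together. It stood at 21.8 and 26.8 CPM in N2B27 at day 2, a ratio to naive of 206 with an exact counting interval of 69.6 to 1006. The ratio was highest in E8 at day 6, where the libraries reached 68.1 and 71.3 CPM. DUSP6 (chr12:89347235-89352501) encodes the cytoplasmic phosphatase specific for ERK and gave 7 naive counts in all. In N2B27 at day 2 it was 31.6 and 22.5 CPM, a ratio of 101 (counting interval 48.1 to 253), and at day 8 it was 205 and 197 CPM, a ratio of 735 (356 to 1830). These intervals and the floor cover counting error only. An unnamed gene on the opposite strand overlaps DUSP6 in GENCODE release 44 and has no row in the count table.

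Several of the genes were at or near their highest level in N2B27 by day 2, while DUSP6 and SPRY1 had their highest mean at day 8. As a percentage of the highest mean reached in N2B27 in Ex1, day 2 already gave 100% for SPRY2, SPRY4 and SPRED2, 76.1% for DUSP5 and 68.2% for SPRED1. SPRY1 was at 47.5% and DUSP4 at 46.5%, while DUSP6 was at 13.5%. DUSP6 moved from 31.6 and 22.5 CPM at day 2, with overlapping libraries, to 20.7 and 22.6 CPM at day 3, and from there to 70.4 and 70.2 CPM at day 4, to 107 and 97.3 CPM at day 6 and to 205 and 197 CPM at day 8. From day 3 on its libraries did not overlap between days. The step from day 3 to day 4 was the only one of 8 genes over 4 steps that was called, with a log2 fold change of 1.69 (SE 0.174, adjusted p = 4.08e-07). The steps to day 6 (0.54, adjusted p = 0.0162) and to day 8 (0.98, adjusted p = 6.72e-05) passed on p but not on fold, the latter reaching 1.001 with RLE scaling or DESeq2. That to day 6 did not pass without any 1 of its 4 libraries, with an adjusted p of up to 0.115. Over the same 4 steps 3.18%, 1.09%, 3.89% and 1.43% of all genes were called.

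Other steps below the fold threshold were those of SPRED1 (0.55, adjusted p = 0.00357) and DUSP4 (0.59, adjusted p = 0.0252) from day 2 to day 3, and that of DUSP5 from day 6 to day 8, with -0.42 (adjusted p = 0.0250). Leaving out 1 library raised these adjusted p values to at most 0.105, 0.171 and 0.267. In a fit of the compared libraries alone they were 0.286 for SPRED1 and 0.316 for DUSP4, and DUSP5 had 0.123 with no filter. The day 4 level of DUSP6 was not the same in both experiments. In Ex2 the N2B27 libraries at day 4 were at 25.5 and 21.2 CPM, near the day 3 level of Ex1 and below both day 4 libraries of Ex1. This difference was a log2 fold change of -1.59 (SE 0.175, adjusted p = 1.37e-06), and DUSP6 was the only one of the 8 genes among the 1.01% of genes called between the experiments at that day.

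Between days 2 and 8 the other genes had no called step in N2B27, and their values took several courses. SPRY2 was 67.7 and 70.1 CPM at day 3, 51.0 and 56.8 CPM at day 4, 54.6 and 60.9 CPM at day 6 and 75.3 and 69.9 CPM at day 8. All of these lie below the day 2 libraries. SPRY4 was 45.5 and 41.0 CPM at day 3, 35.4 and 31.0 CPM at day 4, 31.1 and 29.8 CPM at day 6 and 35.7 and 33.8 CPM at day 8, so that its libraries from day 4 on lay below those of days 2 and 3. SPRED1 was 70.9 and 92.5 CPM at day 3, and its later libraries stayed between 70.5 and 82.5 CPM. SPRED2 was 34.9 and 46.1 CPM at day 3, 41.4 and 35.8 CPM at day 4 and 29.0 and 28.2 CPM at day 6, with the libraries of days 6 and 8 below all earlier ones. DUSP4 was 33.2 and 39.4 CPM at day 3, 49.1 and 55.5 CPM at day 4 and 37.3 and 41.9 CPM at day 6. DUSP5 was 142 and 157 CPM at day 3, 148 and 171 CPM at day 4, 153 and 165 CPM at day 6 and 120 and 118 CPM at day 8. SPRY1 was 10.6 and 9.61 CPM at day 3, 6.41 and 9.85 CPM at day 4 and 7.92 and 9.67 CPM at day 6, with overlapping libraries, and its day 8 libraries lay above all of these.

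**Figure D2:**
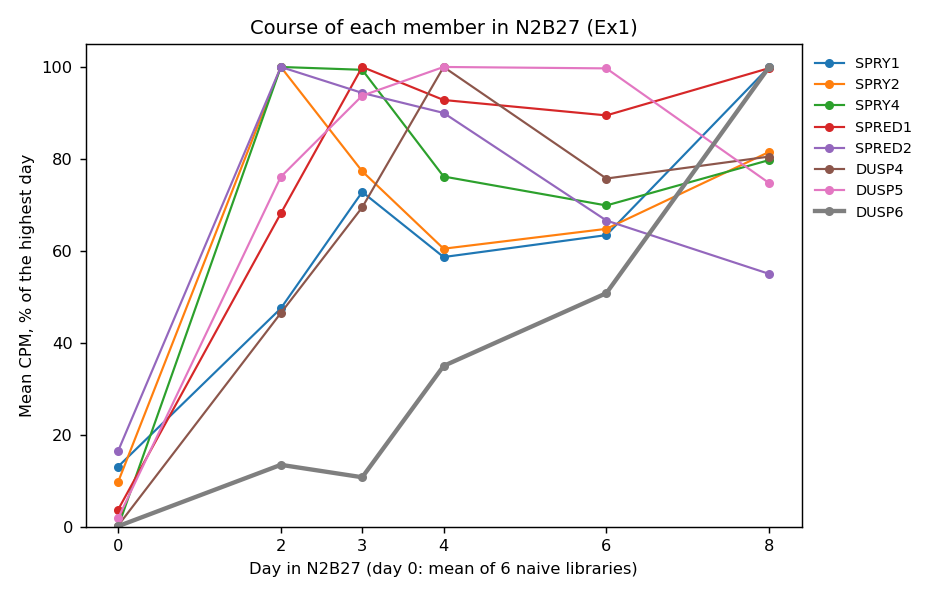
Mean CPM in N2B27 of Ex1 as a percentage of each gene's highest day, against the day, with the mean of the 6 naive libraries at day 0 and 2 libraries at each later day. SPRY2, SPRY4 and SPRED2 are at 100% at day 2, while DUSP6 is at 13.5% and SPRY1 at 47.5% at day 2 and both reach 100% at day 8.

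The media with FGF2 were compared with N2B27 on equal days of Ex1 to ask whether added ligand raises these genes further. By edgeR DUSP6 alone was called, and it was lower in the media with FGF2. With DESeq2, RLE scaling or a filter of more than 10 counts, SPRY1 at day 2 also passed the fold threshold, and it was higher in E8. DUSP6 at day 8 was 63.7 and 71.6 CPM in E8 and 54.6 and 56.5 CPM in mTeSR, against 205 and 197 CPM in N2B27. The libraries of E8 and mTeSR all lay below those of N2B27, and the log2 fold change was -1.57 in E8 (SE 0.152, adjusted p = 3.55e-09) and -1.85 in mTeSR (SE 0.157, adjusted p = 1.69e-09). At day 6 E8 gave -0.78 (adjusted p = 0.000711) while mTeSR gave -0.95 (adjusted p = 0.000168). At day 4 E8 gave -0.77 (adjusted p = 0.00212) while mTeSR gave -0.71 (adjusted p = 0.00728), all under the fold threshold. Leaving out the first E8 library of day 4 gave an adjusted p of 0.133 there. In mTeSR at day 4 leaving out its first library gave 0.154 and leaving out the first or second N2B27 library gave 0.0569 or 0.0640. The day 4 libraries were at 33.6 and 48.5 CPM in E8 and at 38.1 and 47.7 CPM in mTeSR, below N2B27 of Ex1 but above the N2B27 libraries of Ex2, which stood at 25.5 and 21.2 CPM. At days 2 and 3 the DUSP6 libraries of E8 and N2B27 overlapped, for example 18.2 and 24.2 CPM against 20.7 and 22.6 CPM at day 3. E8 and mTeSR differ from N2B27 in their whole formulation, so the part of FGF2 cannot be told apart.

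**Figure D3:**
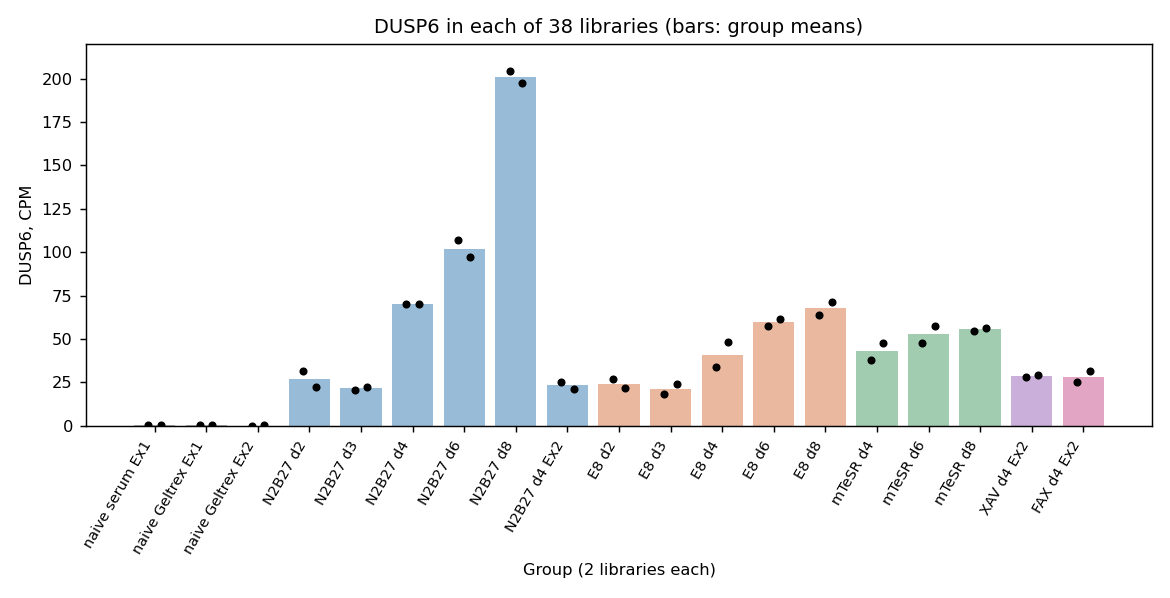
DUSP6 in CPM on a linear axis from 0, with a bar for the mean of each group of 2 libraries and a point for each library. N2B27 of Ex1 rises to 205 and 197 CPM at day 8, while E8 and mTeSR stay at or under 71.6 CPM. XAV, FAX and N2B27 of Ex2 were sampled at day 4 only and lie at or under 31.5 CPM. On that day N2B27 of Ex1 is at 70.4 and 70.2 CPM.

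Averaged over days 4, 6 and 8 and both media, DUSP6 had a log2 fold change of -1.11 (SE 0.0755, 95% interval -1.26 to -0.95, adjusted p = 9.11e-13), with means of 53.2 and 124 CPM. This average was called for 3.91% of all genes, and 33.9% of all genes had an adjusted p under 0.05 at any fold. SPRED1 (0.18, adjusted p = 0.0199), SPRED2 (-0.27, adjusted p = 0.0161) and DUSP4 (0.31, adjusted p = 0.00262) were among the latter. SPRED1 and SPRED2 did not pass when single N2B27 libraries were left out, with adjusted p of at most 0.0762 and 0.0672. With no filter they did not pass either (0.0886 and 0.0553), and SPRED1 did not with library totals (adjusted p = 0.116). SPRY1, SPRY2, SPRY4 and DUSP5 did not pass, and their intervals were -0.39 to 0.12, -0.07 to 0.22, -0.07 to 0.33 and -0.10 to 0.12. The interval of none of these 7 genes reached a change of 1 in either direction.

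On single days 11 of 64 comparisons of a gene between E8 or mTeSR and N2B27 had an adjusted p under 0.05, where 10.9% of all genes did over the same 8 comparisons, and 2 were called, both of them DUSP6 at day 8. The share of all genes called was 4.55%, 1.68%, 2.49%, 5.28% and 7.29% for E8 at days 2, 3, 4, 6 and 8 and 1.58%, 2.62% and 3.8% for mTeSR at days 4, 6 and 8. At any fold, an adjusted p under 0.05 was reached by 13.7%, 6.06%, 7.93%, 15.9% and 19.3% of all genes for E8 and by 4.73%, 9.06% and 10.9% for mTeSR on these days. SPRY1 and SPRY2 had higher values in E8 early. SPRY1 was 13.1 CPM in both E8 libraries at day 2 against 7.00 and 6.17 CPM in N2B27, a log2 fold change of 0.99 (SE 0.272, adjusted p = 0.0143), which was 1.04 with DESeq2 (adjusted p = 0.0396) and did not pass with no filter (adjusted p = 0.0709) or with the compared libraries alone (0.0952). SPRY2 was 109 and 94.6 CPM in E8 at day 3 against 67.7 and 70.1 CPM, a change of 0.56 (adjusted p = 0.0101), but 46.5 and 63.3 CPM at day 8 against 75.3 and 69.9 CPM, a change of -0.41 (adjusted p = 0.0345). SPRED2 was lower in E8 at day 2 (-0.53, adjusted p = 0.0380), and DUSP4 was higher in E8 at day 6 (0.81, adjusted p = 0.000448), with 68.1 and 71.3 CPM against 37.3 and 41.9 CPM. All of these were under the fold threshold. Leaving out 1 library raised the adjusted p to at most 0.0799 for SPRY1, 0.127 and 0.496 for SPRY2 at days 3 and 8 and 0.415 for SPRED2, while DUSP4 passed throughout. With DESeq2 the adjusted p was 0.111 for SPRED2 and 0.0537 for SPRY2 at day 8, and with no filter 0.0501 and 0.0862. SPRED2 had 0.0528 with RLE scaling and 0.0902 with the library score. With the compared libraries alone these were 0.207 for SPRED2 and 0.551 and 0.185 for SPRY2 at days 3 and 8.

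Over all 5 days of E8 the average changes with an adjusted p under 0.05 were 0.19 for SPRY2, -0.30 for SPRED2, 0.34 for DUSP4 and -0.66 for DUSP6, none of them called. With library totals SPRY2 did not pass (0.13, adjusted p = 0.106) while DUSP5 did (-0.15, adjusted p = 0.0206), and with no filter SPRY2 had an adjusted p of 0.0511. The share of all genes was 4.14% called and 37.6% at any fold. The time courses of E8 and N2B27 were also compared directly. They differed for SPRY1 (adjusted p = 0.0198), SPRY2 (adjusted p = 0.00408) and DUSP6 (adjusted p = 0.000236) in an interaction test that 11% of all genes passed. SPRY1 did not pass with DESeq2 (adjusted p = 0.0658), with no filter (0.0571) or without the second N2B27 library of day 8 (0.0544). The course of mTeSR over days 4, 6 and 8 differed from that of N2B27 for DUSP6 only (adjusted p = 0.00447), in a test that 2.18% of all genes passed.

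Further levels in E8 and mTeSR were set beside those of N2B27 on the same day. SPRY2 in E8 was 111 and 120 CPM at day 2, the highest of all its libraries, and 72.1 and 71.8 CPM at day 4, where mTeSR was at 78.6 and 65.6 CPM. SPRED1 in mTeSR was 89.7 and 91.9 CPM at day 4 and 101 and 98.8 CPM at day 8, the latter above the N2B27 libraries of 80.4 and 82.5 CPM. Among the N2B27, E8 and mTeSR libraries, SPRED2 was lowest in mTeSR at day 8, with 16.02 and 18.7 CPM. DUSP4 in mTeSR was 72.0 and 65.4 CPM at day 4 and 40.9 and 45.5 CPM at day 6, and its day 4 libraries lay above those of N2B27. DUSP5 was 142 and 156 CPM in E8 and 148 and 155 CPM in mTeSR at day 4, overlapping with N2B27. SPRY4 in E8 was 45.3 and 40.7 CPM at day 8 and 31.2 and 33.3 CPM in mTeSR, against 35.7 and 33.8 CPM in N2B27. None of these single-day values differed from N2B27 with an adjusted p under 0.05.

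Markers of hypoblast and endoderm also differed between the media at the late days. The summed level of GATA4, GATA6, SOX17, PDGFRA and FOXA2 was 152 to 171 CPM in N2B27 at day 8, 18.1 to 22.7 CPM in E8 and 82.3 to 85.2 CPM in mTeSR. All 5 were called higher in N2B27 at day 8 than in naive cells, and GATA6, SOX17 and FOXA2 were called lower in the average of E8 and mTeSR against N2B27. At day 4 the summed level was 5.47 to 6.77 CPM over the 4 N2B27 libraries of both experiments, 5.32 to 5.85 CPM in E8 and 3.53 to 7.14 CPM in mTeSR. In the same average 1 of 8 naive markers (KLF4, 1.24), 1 of 7 primed or formative markers (SFRP2, 1.03) and 1 of 5 fibroblast markers (POSTN, 1.902) were called higher, and 1 of 5 trophectoderm markers (CDX2, -2.40) lower. These single genes do not stand for their lists. At day 8 the summed fibroblast markers were 107 to 110 CPM in E8, 145 to 160 CPM in mTeSR and 173 to 180 CPM in N2B27. The summed trophectoderm markers were 410 to 433 CPM in E8, 423 to 475 CPM in mTeSR and 343 to 414 CPM in N2B27. At day 8 DUSP6 was higher in E8 (63.7 and 71.6 CPM) than in mTeSR (54.6 and 56.5 CPM). The summed hypoblast and endoderm markers were lower in E8 than in mTeSR on that day. The part of these markers' cells in the DUSP6 difference was not tested.

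The direct test of FGF2 and Activin A on a constant background was FAX against XAV at day 4 of Ex2. None of the 8 genes was called by edgeR or by DESeq2, and 0 of them had an unadjusted p under 0.05 with either tool, while of all genes tested 2 were called, or 0.012%. DUSP6 was 25.2 and 31.5 CPM in FAX and 27.97 and 29.1 CPM in XAV. The libraries overlapped, and the log2 fold change was -0.01 with a 95% interval of -0.38 to 0.37. In N2B27 at day 4 DUSP6 was 25.5 and 21.2 CPM in Ex2, against 70.4 and 70.2 CPM in Ex1. The higher level of Ex1 was thus not present in Ex2, so a lowering from it could not be seen there. SPRY4 gave the furthest estimate from 0, with 56.8 and 54.9 CPM against 47.7 and 43.8 CPM. Its libraries did not overlap, but the change of 0.29 had an interval of -0.09 to 0.67 and an adjusted p of 0.937. The intervals of SPRY1 (-0.59 to 0.50), SPRY2 (-0.28 to 0.29), SPRED1 (-0.11 to 0.38), SPRED2 (-0.29 to 0.36), DUSP4 (-0.31 to 0.38) and DUSP5 (-0.33 to 0.11) also stayed within a change of 1. The effect of FAX on DUSP6 less that of E8 and mTeSR at day 4 was 0.74 (95% interval 0.27 to 1.203), which did not pass over all genes (adjusted p = 0.0962), where 1.7% of genes did.

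**Figure D4:**
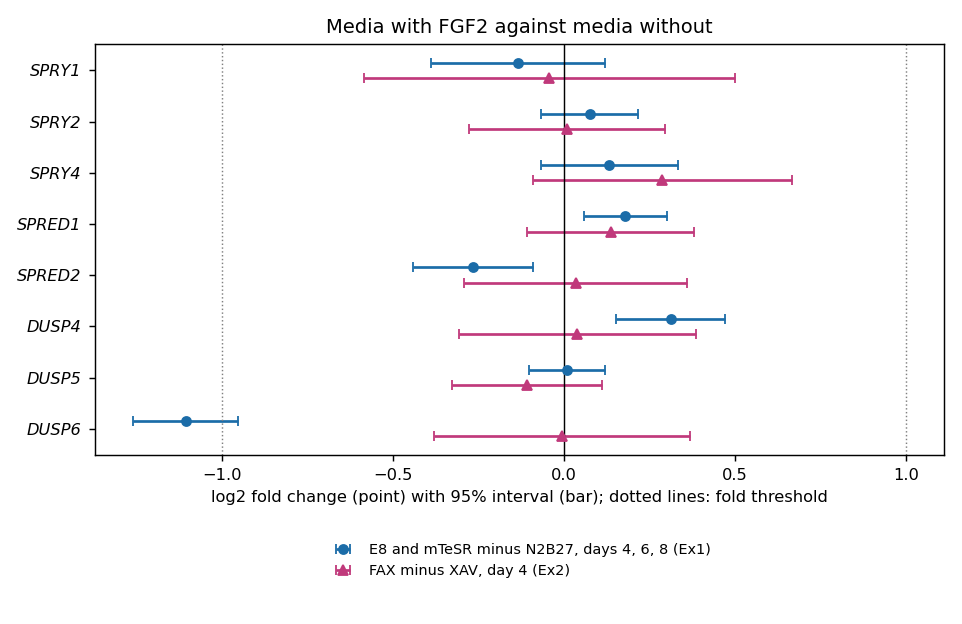
Log2 fold change of the 8 tested genes with 95% intervals, for the average of E8 and mTeSR against N2B27 over days 4, 6 and 8 (circles) and for FAX against XAV at day 4 (triangles), with dotted lines at the fold threshold. DUSP6 lies at -1.11 in the first comparison and at -0.01 in the second, and every other interval stays between the dotted lines. The comparisons differ in experiment and days, and at day 4 alone DUSP6 was at -0.77 in E8 and -0.71 in mTeSR.

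Within Ex2, DUSP4 was the only 1 of the 8 genes with an adjusted p under 0.05 between N2B27 and the media with XAV939. It was 60.2 and 56.4 CPM in N2B27, 32.8 and 31.1 CPM in XAV and 35.4 and 30.3 CPM in FAX. The N2B27 libraries lay above the others, with changes of -0.87 in XAV (SE 0.162, adjusted p = 0.00155) and -0.83 in FAX (SE 0.164, adjusted p = 0.00633), both under the fold threshold. The shares of all genes called were 0.57% and 0.336%. Leaving out the second XAV library gave an adjusted p of 0.0545 for XAV, and for FAX leaving out its second library gave 0.261 and leaving out the first N2B27 library 0.0949. DUSP5 was 198 and 189 CPM in XAV against 151 and 148 CPM in N2B27 without passing (0.37, adjusted p = 0.0893).

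Coating had no called effect on the 8 genes in naive cells. Geltrex against serum coating gave no call among them by edgeR, with 1 at an unadjusted p under 0.05 where 14.1% of all genes had one, none by DESeq2, and 0.048% called over all genes. Between the experiments, naive cells on Geltrex differed in SPRY1, with 4.78 and 2.77 CPM in Ex2 against 0.673 and 0.902 CPM in Ex1. This was a log2 fold change of 2.17 (SE 0.482, adjusted p = 0.00208) where 4.67% of all genes were called, and it rests on 3 to 14 counts per library. Without the first Ex2 library the adjusted p was 0.0866. SPRED2 differed in the same direction by 0.81 (adjusted p = 0.0384), under the fold threshold. It did not pass with DESeq2 (adjusted p = 0.0549), library totals (0.0523), no filter (0.128) or the compared libraries alone (0.0624). Nor did it without the first or second Ex1 library or the second Ex2 library, with changes of 0.64, 1.04 and 0.49. Without the first Ex2 library the change was 1.03, above the fold threshold. The rise from naive cells on Geltrex to N2B27 at day 4 was smaller in Ex2 for SPRY1, by 2.24 on the log2 scale (95% interval of the difference -3.36 to -1.11, adjusted p = 0.00719), and for SPRED2, with a difference of -1.07 (adjusted p = 0.0234). Without the first naive library of Ex2 SPRY1 did not pass (-1.83, adjusted p = 0.0963). SPRED2 did not pass without any 1 of 4 libraries, with up to 0.242 and a difference of -0.76 without the second naive library of Ex2, nor with no filter (0.0711). This test, which 11.7% of all genes passed, and that of the mTeSR course were added after the other values had been seen.

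In N2B27 9.86% of all genes were called higher and 6.3% lower at day 2, and 16.9% and 7.03% at day 8, and the counts of the gene lists that follow stand beside these shares. Of the FGF ligands and receptors, 3 of 9 tested were called higher in N2B27 at day 2 and 1 lower. FGFR1, the main FGF receptor of pluripotent cells, had a log2 fold change of 2.73, FGF2 of 2.704 and FGF19 of 3.68, while FGF4 fell by 1.14 and, at day 8, by 3.07. At day 8, 4 were higher, FGF13 among them with 1.12. Of the 18 genes of the RAS-RAF-MEK-ERK cascade, 16 were not called at day 2. HRAS was higher at day 2 (1.28) and GAB1, an adaptor, was lower (-1.28). At day 8 the lower ones were GAB1 (-1.17) and SOS1, a RAS activator (-1.13).

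Targets of ERK outside the feedback genes were mostly higher. Of 12 tested ETV and early response genes, 10 were called higher and 1 lower in N2B27 at day 2, with a median log2 fold change of 3.62 against 4.77 for the 8 feedback genes and 0.02 over all genes. The transcription factor genes FOS (5.67), ETV5 (5.20), ETV1 (4.45) and ETV4 (4.18) had the largest changes, and JUNB was lower (-2.13). At day 8, 10 were again higher and JUNB lower. The 4 largest were then ETV5 (6.48), CCND1 (6.13), FOS (4.99) and PHLDA1 (4.94). With SPRY4 at its floor bound the median of the 8 feedback genes at day 2 was also 4.77. The changes of SPRY4, DUSP4 and DUSP6 rest on 0, 3 and 7 naive counts and lie above that median. The medians of both lists are therefore not ranked.

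Of 10 other inhibitors of RAS-ERK signalling, 3 were called higher at day 2, namely ERRFI1 (1.69), an EGF receptor inhibitor, IL17RD (1.64), which binds FGF receptors, and RASAL2 (1.01), a RAS GTPase activator. At day 8, 4 were higher, and the fourth, SPRY3, had 1 naive count in all. Of the other MAPK phosphatases, which act in part on JNK and p38, DUSP1 was the single one of 6 tested that was called at day 2 (-1.06). At day 8 DUSP10 (2.07) and DUSP1 (1.88) were higher and DUSP16 (-1.44) was lower. In the average of E8 and mTeSR against N2B27, and in FAX against XAV, no gene of these 5 lists was called by edgeR, and 23 and 2 of their 55 tested genes had an unadjusted p under 0.05, against 43.1% and 5.62% of all genes.

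Of 8 naive markers, 2 were lower and 2 higher in N2B27 at day 2, with ARGFX at 1.46 and SUSD2 at 1.41, and all 8 were lower at day 8, with KLF4 at -3.00 and DNMT3L at -2.62. The 7 primed or formative markers were called higher in 5 cases at day 2 and in 7 at day 8. Of the 5 trophectoderm markers tested, none was called at day 2, and at day 8 3 were higher, GATA3 (3.75), CDX2 (2.75) and GATA2 (2.57), and 1 was lower. The summed level of the 7 trophectoderm markers was 337 to 495 CPM in naive cells and 343 to 414 CPM in N2B27 at day 8. Of the 5 fibroblast markers tested, 2 were called higher at day 2, COL1A2 (5.50) and COL1A1 (1.42), and 4 at day 8. The part of these markers' cells in the levels of the feedback genes was not tested.

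Over the 16 groups after release, Pearson's r between pairs of them ranged from -0.58 for SPRED2 with DUSP6 to 0.51 for SPRY1 with SPRY2. The ratio of the highest to the lowest group mean was 9.49 for DUSP6 and 1.79 to 2.87 for the other 7. With the naive groups included, the genes whose group means followed each member most closely among 13774 genes also reflect the step from naive to released cells. SPRY2 was followed most closely by FGFR1 (r = 0.989), SPRY4 by THY1 (0.995), SPRED1 by CCND2 (0.993), DUSP4 by TNIK (0.993) and DUSP5 by KRT18P35 (0.992). SPRY1 was followed by APP (0.940), SPRED2 by SMAGP (0.954) and DUSP6 by ID3 (0.972), CMKLR1 (0.970) and TCF7L2 (0.969). These correlations are over 19 group means of the same libraries and are a description.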

How the data were processed

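RNA was measured by 3′ tag sequencing (QuantSeq) in 38 libraries of Shef6. The deposited table holds raw whole-number counts per gene that the authors made with nf-core/rnaseq; the submitters' processing notes name FastQC 0.11.9, STAR 2.7.10a and Salmon 1.9.0, and the annotation release is not given in the sources used here. Reads lie near the 3′ end, so levels were not compared between genes. The test was edgeR 4.0.16 (R 4.3.3): filterByExpr, TMM scaling and quasi-likelihood F-tests, with Benjamini-Hochberg adjustment over the 16674 genes tested, which held 99.65% of counts. A gene was called at an adjusted p under 0.05 and an absolute log2 fold change above 1. A fit of 16 levels with the naive libraries pooled gave comparisons with naive cells, and a fit of 19 groups gave the others. CPM use the scaled library sizes, and naive groups are given with a floor of 3 counts. Other settings were RLE scaling, library totals, other filters, DESeq2 1.42.0, fits of the compared libraries alone, experiment, replicate number or a library score as a covariate, other naive libraries, and leaving out each library. The steps were tested on simulated data. The genes and lists were chosen with earlier results of these data known. Named genes were the 9 members, up to 4 genes called per list and comparison, and up to 3 genes most like each member by Pearson correlation of log2 CPM (prior count 2). Gene positions on GRCh38 come from GENCODE release 44, and promoter sequences are from RefSeq (GRCh38.p14). DUSP4 and DUSP5 had no entry in the promoter table. The value of 1 marker gene outside the members is not reported here.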

Additional observations from a re-analysis of the deposited data

Results flagged for a closer look

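The time courses of E8 and N2B27 differed for SPRY1 (adjusted p = 0.0198), SPRY2 (adjusted p = 0.00408) and DUSP6 (adjusted p = 0.000236). That of mTeSR and N2B27 differed for DUSP6 (adjusted p = 0.00447). For SPRY1 the call was lost with DESeq2 (adjusted p = 0.0658), with no filter (0.0571) and without the second N2B27 library of day 8 (0.0544).

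The rise from naive cells on Geltrex to N2B27 at day 4 differed between Ex1 and Ex2 for SPRY1 (adjusted p = 0.00719) and SPRED2 (adjusted p = 0.0234). Each experiment held 2 libraries on either side. SPRY1 did not pass without the first naive library of Ex2 (adjusted p = 0.0963), and SPRED2 did not pass without any 1 of 4 libraries (adjusted p up to 0.242). In Ex1 SPRY1 went from 0.673 and 0.902 CPM to 6.41 and 9.85 CPM, and in Ex2 from 4.78 and 2.77 CPM to 9.64 and 5.95 CPM.

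DUSP5 in the second N2B27 library of day 4 of Ex1, at 171 CPM, stood apart from the other 3 N2B27 libraries of that day, which lay between 148 and 151 CPM. It was the single case among 15 combinations of a gene with the naive libraries or the N2B27 libraries of day 4, where chance gives about 1 in 20.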

How the results depend on the processing

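Against naive cells, the 8 genes tested kept their calls under all other settings, 10 in XAV and FAX and 11 elsewhere, including naive libraries of the same experiment, those on serum coating alone and the experiment as a covariate, and without each of the 38 libraries. In the other comparisons, 364 of 401 single values under other settings kept their direction and side of the threshold, 26 no longer passed, 2 newly passed and 9 changed sign. Without single libraries 462 of 522 kept both, 46 no longer passed, 3 newly passed and 11 changed sign. DUSP6 in the average of E8 and mTeSR against N2B27 ran from -1.16 to -1.10 over other settings and from -1.16 to -1.07 without single libraries. The values that changed sign all lay near 0. In FAX against XAV, DUSP6 was 0.0034 with RLE scaling, 0.0058 with the filter of more than 10 counts, 0.054 with the library score and 0.0031 with DESeq2. SPRY2 there was -0.011 with library totals, -0.00058 with no filter and -0.018 with the library score. DUSP5 in the average of both media was -0.045 with library totals and -0.0067 with the library score. Without single libraries, FAX against XAV ran from -0.18 to 0.14 for DUSP6, from -0.15 to 0.19 for SPRY2, from -0.20 to 0.14 for SPRY1 and from -0.076 to 0.15 for DUSP4, and the media average of DUSP5 from -0.026 to 0.046.

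In place of 0 members, 1 was called in E8 at day 2 (SPRY1, higher) with DESeq2, RLE scaling or the filter of more than 10 counts, 1 (DUSP6) from day 6 to day 8 of N2B27 with DESeq2 or RLE scaling, 1 (DUSP6) in mTeSR at day 6 with the library score, and 1 (DUSP6) for the effect of FAX less that of E8 and mTeSR with the library score. The course of E8 gave 5 in place of 3 with the library score, SPRY4 and DUSP4 being added, and the rise compared between experiments 1 in place of 2 with no filter. Without single libraries the counts ran from 0 to 1 in E8 at day 4, mTeSR at day 6, the step from day 6 to day 8 and the effect of FAX less that of E8 and mTeSR, from 2 to 5 in the course of E8, and from 1 to 2 in the rise compared between experiments. With no filter SPRED3 was called higher in E8 at day 8 than in naive cells (adjusted p = 0.0454). The cause was not tested.

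The replicate numbers did not pair the libraries: over 171 pairs of groups the correlation of replicate differences ran from -0.54 to 0.45 with a median of 0.00. With the replicate number as a block, DUSP6 in the media average was -1.11 (adjusted p = 1.23e-12), and no number of members called changed.

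Counts over all genes, of higher genes where naive cells were compared, moved by more than 1.5 times in 17 comparisons. DESeq2 called 116, 411 and 148 for 181, 648 and 239 in the steps of N2B27 to days 4, 6 and 8, 488, 166 and 263 for 758, 280 and 415 in E8 at days 2, 3 and 4, 162, 290 and 418 for 263, 437 and 634 in mTeSR, 1 for 2 in FAX against XAV, and 102 for 168 between experiments at day 4. Fits of the 4 compared libraries alone called 84 and 22 for 531 and 181 in the steps to days 3 and 4, 409, 6, 657 and 799 for 758, 280, 415 and 1216 in E8 at days 2, 3, 4 and 8, 24, 165 and 133 for 2, 95 and 56 in FAX against XAV and in XAV and FAX against N2B27, 1 for 8 between coatings, and 296 for 168 between experiments. With no filter, 23, 88 and 106 were called for 2, 56 and 8 in FAX against XAV, FAX against N2B27 and between coatings. The library score gave 1508 for 2320 higher in E8 at day 2 than in naive cells, and 590 for 1050 lower in N2B27 at day 2. Library totals moved the median of all genes in E8 at day 2 to -0.15, and the share higher among calls from 62.1% to 43.5% there, from 56.5% to 45.9% against naive cells, from 73.5% to 84.2% in the step to day 4, from 50% to 33.3% between coatings and from 38.7% to 27.4% between experiments.

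Fits of the compared libraries alone were not run for averages and interactions, and the experiment as a covariate bears on comparisons with naive cells only. Groups of 2 parallel libraries limit what the p-values cover. Values of SPRY1, SPRED3 and all naive levels of SPRY4, DUSP4 and DUSP6 rest on few counts.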
